A study of Rattus norvegicus with 8 samples.

Results

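Collagen genes were described on arrays of rat dorsal spinal cord, with and without treatment with a histone deacetylase inhibitor (HDACI). A gene was taken as a collagen gene where the only symbol of its probe set was Col followed by a number, the letter a and a number. This gave 25 genes on 27 probe sets, out of 14506 genes with 1 symbol and 29214 probe sets on the array. Of these, 24 genes had 1 probe set, and Col6a4 had 3, which were averaged. The rat RefSeq table (assembly GRCr8) lists 44 collagen symbols, and 19 of them, among them Col4a2, Col6a1, Col6a2, Col6a3, Col15a1 and Col18a1, had no probe set with a single symbol and were not analysed here.

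The tissue was the dorsal lumbar cord on the injured side, dissected 14 days after transection of the fifth lumbar spinal nerve in adult male Wistar rats. All 8 animals had the nerve injury, a laminectomy and an intrathecal catheter fed by an osmotic pump. The 4 rats of the HDACI group received MS-275, an inhibitor of class I histone deacetylases, at 30 nmol/d, and the 4 rats of the vehicle group received dimethyl sulfoxide in saline, the solvent. No uninjured animals and no animals without a catheter were part of these arrays, so the comparison is of drug with solvent in injured cord, 1 array per animal sample. RNA was hybridised to Affymetrix Rat Gene 1.0 ST arrays, and the values are log2 signals after RMA, a normalisation by which every array is brought to a common signal distribution. A log2 difference of 1 is a doubling, and because each probe set has its own binding strength, levels are compared between arrays and never between genes.

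Collagens are triple-helical proteins built from 3 α chains, and each Col gene encodes 1 such chain. The fibrillar types I, II, III, V, XI and XXVII assemble into fibrils, type IV forms the sheet-like network of basement membranes, types VIII and X form short-chain networks, and types IX, XII, XIV and XVI attach to the surface of fibrils. In the spinal cord, fibrillar collagen is best known from the meninges, from the sheath around larger vessels and from nerve roots, whereas the parenchyma holds little of it and type IV collagen lies under endothelium and around the glial limiting membrane. Scars that form after damage to the cord contain fibroblasts that lay down both kinds.

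After normalisation the array medians over all probe sets were 7.95 to 7.98, and correlations between arrays across probe sets were 0.993 to 0.997. Normalisation brings the medians together, and the differing binding strengths of probe sets keep such correlations high. Neither value therefore shows that the arrays were alike. Array quality weights ranged from 0.594 to 1.61. The measured markers of neurons, oligodendrocytes and astrocytes lay above the array medians, which does not show how much of each type a sample held: the 6 neuronal markers had mean log2 signals of 9.99 to 13.6, the 5 measured oligodendrocyte markers 11.4 to 13.1 and the 6 astrocyte markers 9.25 to 13.1. Peptide and transcription factor genes of the dorsal horn (6 measured) lay between 8.70 and 12.2. HDACI replicate 2 stood apart for collagens and for several of the marker lists given below. The counts over all collagen genes and many single genes are therefore given with and without it. A fold change with no array named as left out is that of all arrays. In such bulk samples, fewer cells of a type and less RNA per cell cannot be told apart.

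None of the collagen genes passed the test. With limma and the cutoff of the study, an unadjusted p under 0.01, 0 of 25 were called, against a background of 1.46% of all genes. After Benjamini-Hochberg adjustment over all genes 0 of 25 were called, as were 0 of the 14506 genes with 1 symbol. The study tested the whole array and reported a mitochondrial transfer RNA as the only gene to pass in the cord. At an unadjusted p under 0.05, 1 collagen gene was higher with HDACI (Col8a1; 2.79% of all genes were called in this direction) and 1 was lower (Col10a1; 4.96%). For 0 of 25 genes were the 4 HDACI arrays separate from the 4 vehicle arrays, where 5.02% of all genes had groups that did not overlap. Fold changes lay above 0 for 12 collagen genes and below 0 for 13, with a median of -0.001 on the log2 scale. Over all genes 42.1% lay above 0, and the median was -0.014. For 20 of the 25 genes the log2 fold change was between -0.10 and 0.10, and the exceptions were Col1a1, Col1a2, Col8a1, Col9a1 and Col10a1.

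Without HDACI replicate 2, the balance of signs moved. Only 6 collagen genes then lay above 0 and 19 below, with a median of -0.04, while the share above 0 over all genes was 41.5% and the median -0.014. The 6 genes that went from above 0 to below it were Col1a1, Col1a2, Col3a1, Col4a1, Col12a1 and Col16a1, and 0 went the other way. Calls at an unadjusted p under 0.01 numbered 0 of 25 (background 1.03%), and at an unadjusted p under 0.05 there were 0 higher genes (2.46%) and 1 lower gene, again Col10a1 (3.66%). Groups did not overlap for 0 of 25 (7.92%).

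**Figure D1:**
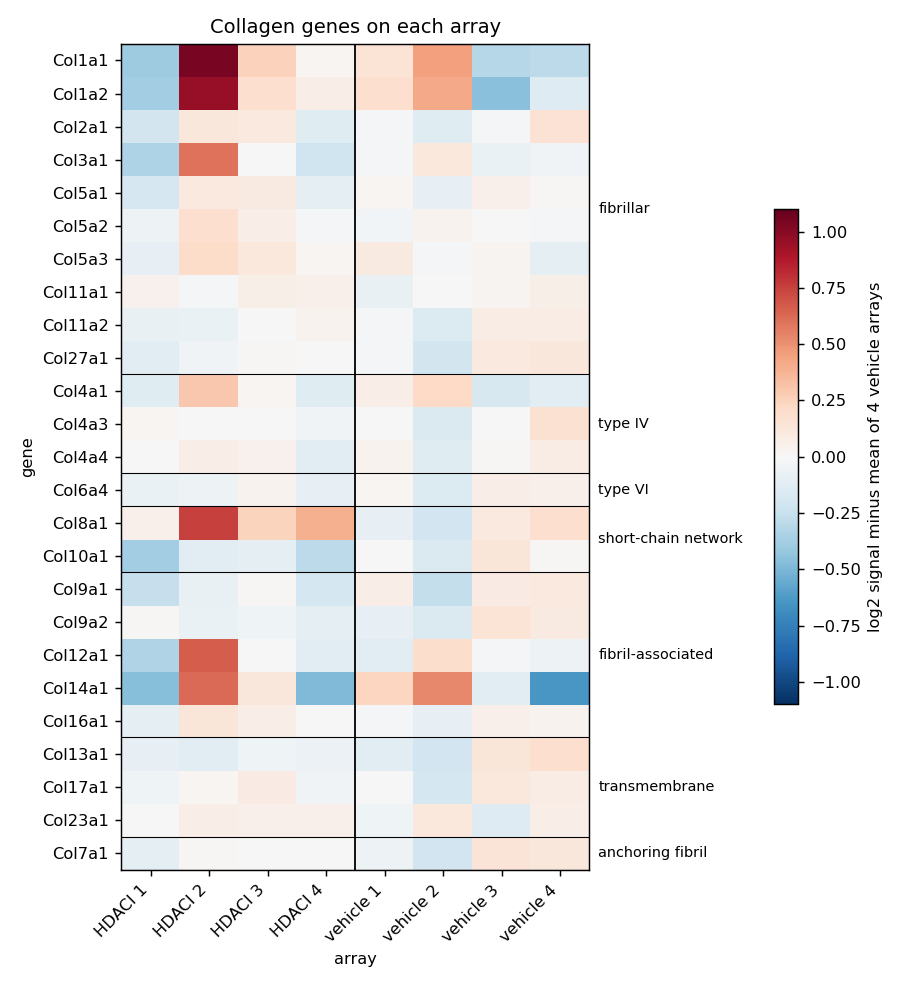
Log2 signal of the 25 collagen genes on each of the 8 arrays, minus the mean of the 4 vehicle arrays of that gene, grouped by collagen class; red is above and blue below the vehicle mean. The column of HDACI 2 holds the strongest reds, in Col1a1, Col1a2, Col3a1, Col12a1, Col14a1 and Col8a1, and no row separates the 4 HDACI arrays from the 4 vehicle arrays.

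The short-chain collagens gave the smallest p values, in opposite directions. Their mean log2 signals, 7.37 for Col8a1 and 7.36 for Col10a1, lay below the array medians of 7.95 to 7.98. Whether both genes stood above background was not tested. Their promoters, the 130 bases before the start of the gene in RefSeq (GRCr8), are shown because these were the genes with an unadjusted p under 0.05. Capitals mark the CCAAT box (CCAAT), the TATA box (TATAAA) and the GC box (GGGCGG), each searched on both strands.
Col10a1, chr20:39737406-39737535, plus strand: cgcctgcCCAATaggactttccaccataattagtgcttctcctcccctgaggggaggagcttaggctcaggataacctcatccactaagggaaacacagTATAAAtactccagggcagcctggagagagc
Col8a1, chr11:56246652-56246781, plus strand: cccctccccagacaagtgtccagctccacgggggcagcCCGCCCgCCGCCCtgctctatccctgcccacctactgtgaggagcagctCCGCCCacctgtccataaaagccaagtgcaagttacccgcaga
The window of Col10a1 holds a CCAAT box 123 and a TATA box 31 bases before the start and no GC box. That of Col8a1 holds 3 GC boxes on the opposite strand, 92, 85 and 43 bases before the start, and neither of the others. RefSeq promoters were given for 20 of the 25 collagen genes, and GC boxes were found in 11 of them (24.6% of 33469 promoters), CCAAT boxes in 4 (21.3%) and TATA boxes in 2 (7.14%). A match of these letters is a description of the window.

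Col8a1 encodes the α1 chain of type VIII collagen, a short-chain collagen made by endothelial and smooth muscle cells. Its log2 signal was 7.24, 7.94, 7.43 and 7.58 in HDACI replicates 1 to 4 and 7.10, 6.98, 7.29 and 7.37 in vehicle replicates 1 to 4. HDACI 2 was the highest array and vehicle 2 the lowest, and HDACI 1 lay below both vehicle 3 and vehicle 4, so that the groups overlapped. The mean was 7.55 ± 0.30 (SD, n = 4) with HDACI and 7.19 ± 0.18 (n = 4) with vehicle. The log2 fold change was 0.36 (standard error, SE, 0.14, 95% confidence interval 0.04 to 0.68, unadjusted p = 0.0322, adjusted p = 0.628, limma). The exact two-sided permutation test gave p = 0.114, where the smallest value that 4 against 4 arrays allow is 0.0286. Without HDACI 2 the log2 fold change was 0.23 (SE 0.11, interval -0.02 to 0.48; unadjusted p = 0.0711). Leaving out HDACI 1 instead gave 0.46 (unadjusted p = 0.00829), and the unadjusted p was also above 0.05 without HDACI 4 (0.0648), vehicle 1 (0.0742) or vehicle 2 (0.0872).

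Col10a1 encodes the chain of type X collagen, the collagen of hypertrophic cartilage. The HDACI arrays read 7.09, 7.35, 7.36 and 7.18, and the vehicle arrays 7.48, 7.32, 7.61 and 7.49. Vehicle 2 was lower than HDACI 2 and HDACI 3, and the other vehicle arrays lay above every HDACI array. Means were 7.25 ± 0.13 (SD, n = 4) with HDACI and 7.47 ± 0.12 (n = 4) with vehicle, a log2 fold change of -0.23 (SE 0.08, 95% confidence interval -0.40 to -0.05; unadjusted p = 0.0181, adjusted p = 0.610, limma; exact permutation p = 0.0857). Without HDACI 2 the log2 fold change was -0.26 (SE 0.08, unadjusted p = 0.0141). It was -0.17 without HDACI 1 (unadjusted p = 0.0523), -0.18 without vehicle 3 (unadjusted p = 0.0537) and -0.28 without vehicle 2 (unadjusted p = 0.00582). Of 8 genes listed as markers of cartilage and bone, all measured, 4 lay above 0 and 4 below, with a median of 0.01, and 0 had an unadjusted p under 0.05; Ibsp, bone sialoprotein, had the smallest (log2 fold change 0.14, unadjusted p = 0.0624).

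**Figure D2:**
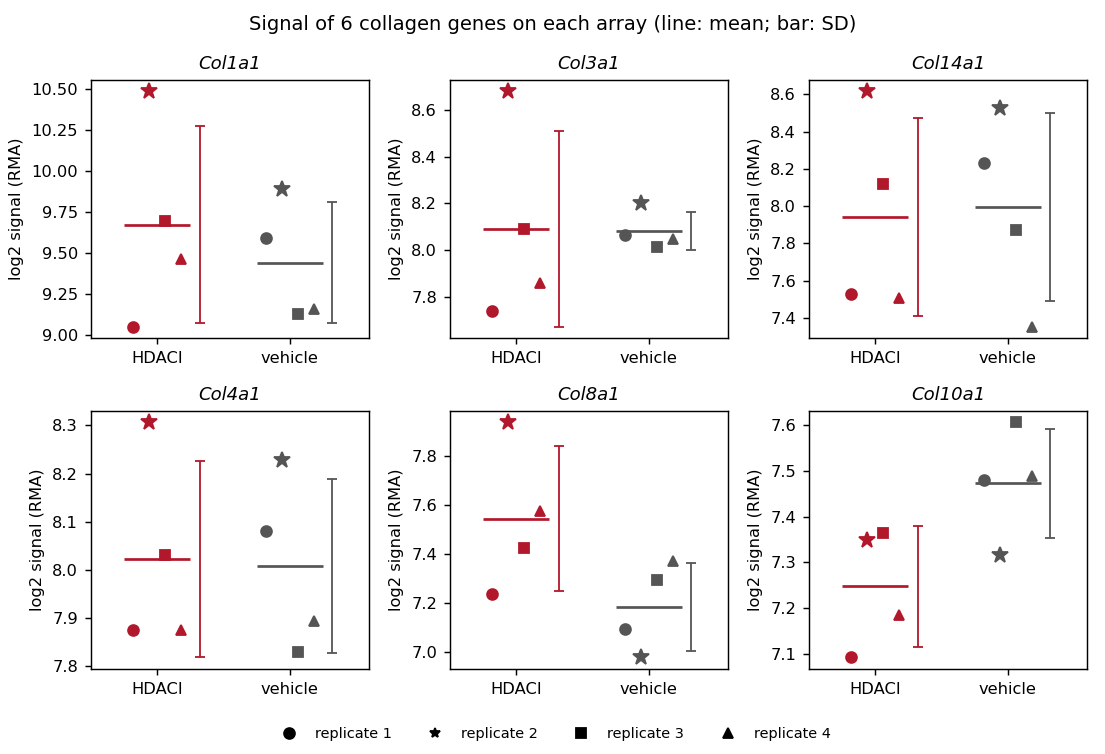
Log2 RMA signal of Col1a1, Col3a1, Col14a1, Col4a1, Col8a1 and Col10a1 on the HDACI arrays (red) and the vehicle arrays (grey), with 1 symbol shape per replicate number, the group mean as a line and the SD as a bar. In 5 of the 6 panels the star of HDACI 2 is the highest point; Col10a1 is the exception, with 3 vehicle arrays above all HDACI arrays.

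Fibrillar collagens were the largest class, with 10 of 11 listed genes measured. With all arrays 6 lay above 0 and 4 below, with a median of 0.02, and without HDACI 2 they numbered 3 above and 7 below, with a median of -0.04. None had an unadjusted p under 0.05 in either case. Col1a1 and Col1a2 encode the α1 and α2 chains that make up type I collagen, the main fibril of meninges, skin and bone. Col1a1 read 9.05, 10.49, 9.69 and 9.46 on the HDACI arrays and 9.59, 9.89, 9.12 and 9.15 on the vehicle arrays. HDACI 2 stood 0.60 above the next highest array and HDACI 1 was the lowest of all 8, so that the extremes both belonged to HDACI animals. HDACI differed from vehicle by a log2 fold change of 0.23 (SE 0.29, 95% confidence interval -0.41 to 0.87; unadjusted p = 0.436, limma) with all arrays and -0.04 (SE 0.21, interval -0.52 to 0.44; unadjusted p = 0.857) without HDACI 2.

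Col1a2 followed the same order at the top, with 8.92, 10.26, 9.49 and 9.38 on the HDACI arrays and 9.49, 9.72, 8.85 and 9.16 on the vehicle arrays. HDACI 2 was again the highest, here 0.54 above vehicle 2. Its log2 fold change was 0.21 (SE 0.27, unadjusted p = 0.468) and -0.04 without HDACI 2 (SE 0.21, unadjusted p = 0.842). Col3a1, the chain of type III collagen, which accompanies type I in compliant tissues, read 7.74, 8.68, 8.09 and 7.86 with HDACI and 8.07, 8.20, 8.01 and 8.05 with vehicle. The vehicle arrays lay within 0.19 of each other, whereas the HDACI arrays spanned the whole range of 0.94. For Col3a1 it was 0.01 (SE 0.17, unadjusted p = 0.958) and, without HDACI 2, -0.19 (SE 0.09, interval -0.38 to 0.01; unadjusted p = 0.0588, exact permutation p = 0.171).

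The minor fibrillar chains differed less between arrays. Type V collagen starts and limits the growth of type I fibrils: Col5a2 read 7.98, 8.22, 8.11 and 8.02 with HDACI and 8.01, 8.08, 8.04 and 8.02 with vehicle, and Col5a3 8.11, 8.40, 8.31 and 8.22 against 8.29, 8.18, 8.23 and 8.09. HDACI 2 was the highest array for both, and the rest lay close together. Their log2 fold changes were 0.05 (SE 0.06) and 0.06 (SE 0.07), and without HDACI 2 they were 0.00 and 0.02. Col11a1, a chain of type XI collagen, which has the same role in cartilage fibrils, read 8.45, 8.38, 8.47 and 8.46 with HDACI and 8.32, 8.40, 8.43 and 8.47 with vehicle, and here HDACI 2 was the lowest HDACI array. The log2 fold change of Col11a1 was 0.04 (SE 0.05) and 0.06 without HDACI 2. For Col2a1, Col5a1, Col11a2 and Col27a1 it ranged from -0.04 (Col27a1) to -0.02 (Col5a1), with unadjusted p values of 0.616 to 0.806.

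Among basement membrane collagens, 3 of the 6 type IV chains were measured. Col4a1, which encodes the α1 chain of the network found under all endothelium, read 7.87, 8.31, 8.03 and 7.87 with HDACI and 8.08, 8.23, 7.83 and 7.89 with vehicle. HDACI 2 was the highest and vehicle 2 the next, and the remaining arrays of both groups were interleaved. HDACI minus vehicle gave a log2 fold change of 0.01 (SE 0.11, 95% confidence interval -0.24 to 0.27; unadjusted p = 0.906) and -0.08 without HDACI 2 (SE 0.10, unadjusted p = 0.426). Col4a3 and Col4a4, chains of the specialised network best known from the kidney glomerulus, had log2 fold changes of 0.00 each, with intervals of -0.15 to 0.14 and -0.14 to 0.14. With all arrays, these intervals bound the difference in signal for both chains at about 0.15 in either direction. The mean log2 signals, 7.78 for Col4a3 and 7.49 for Col4a4, lay below the array medians of 7.95 to 7.98. Whether these 2 genes stood above background was not tested, so a bound on the signal need not bound the transcript. Without HDACI 2 the intervals were -0.17 to 0.16 (Col4a3) and -0.18 to 0.12 (Col4a4). The median of the class was -0.001 with all arrays and -0.03 without HDACI 2.

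Fibril-associated collagens (5 of 10 listed genes measured) had 2 genes above 0 and 3 below, with a median of -0.05, and 0 above and 5 below without HDACI 2, with a median of -0.14. Col12a1 and Col14a1 encode the chains of types XII and XIV, which bind type I fibrils and bridge them to other matrix. Both were named after their values were seen. On the HDACI arrays Col12a1 read 7.88, 8.88, 8.21 and 8.09, and on the vehicle arrays 8.10, 8.40, 8.19 and 8.15. HDACI 2 was 0.48 above the next array and HDACI 1 the lowest, as for Col1a1. Col14a1 read 7.53, 8.62, 8.12 and 7.51 with HDACI and 8.23, 8.53, 7.87 and 7.35 with vehicle, a spread of more than 1 log2 unit within each group. Their log2 fold changes were 0.05 (SE 0.18) and -0.05 (SE 0.30), and -0.15 (unadjusted p = 0.148) and -0.28 (unadjusted p = 0.327) without HDACI 2.

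Col9a1, a chain of the cartilage collagen type IX, had the next smallest p. It read 7.45, 7.62, 7.72 and 7.51 with HDACI and 7.77, 7.44, 7.79 and 7.81 with vehicle. Vehicle 2 was the lowest of all 8 arrays, while the other 3 vehicle arrays lay above every HDACI array. The log2 fold change was -0.13 (SE 0.09, unadjusted p = 0.194), -0.14 without HDACI 2 (unadjusted p = 0.202) and -0.21 without vehicle 2 (unadjusted p = 0.0110). Col9a2 and Col16a1 had log2 fold changes of -0.05 and 0.03, and of -0.05 and -0.01 without HDACI 2.

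The remaining collagens did not differ beyond their spread. Transmembrane collagens are cell-surface proteins with a collagenous ectodomain, and 3 of 4 were measured. Col13a1 read 7.39, 7.36, 7.43 and 7.41 with HDACI and 7.36, 7.27, 7.62 and 7.66 with vehicle. The HDACI arrays lay within the range of the vehicle arrays, at a log2 fold change of -0.08 (SE 0.08, unadjusted p = 0.373; -0.07 without HDACI 2). Col17a1 and Col23a1 gave 0.01 and 0.05. Col7a1, the collagen of anchoring fibrils in skin, gave -0.02 (SE 0.08). Col6a4, the only measured chain of the beaded filament type VI, gave -0.05 (SE 0.06), and its 3 probe sets, fitted singly, gave -0.09 (unadjusted p = 0.0528), -0.05 and 0.01.

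**Figure D3:**
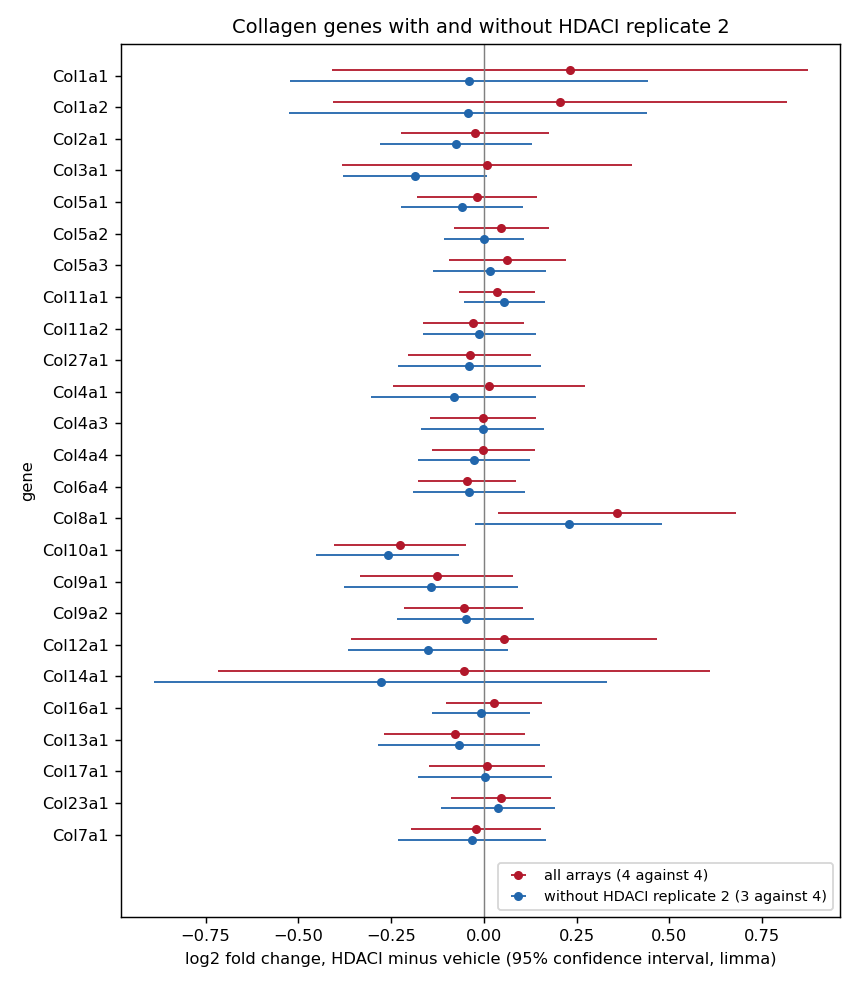
Log2 fold change (HDACI minus vehicle) of each collagen gene with its 95% confidence interval from limma, with all 8 arrays (red) and without HDACI replicate 2 (blue). The interval leaves out 0 for Col8a1 and Col10a1 with all arrays and for Col10a1 alone without HDACI 2, and the widest intervals are those of Col14a1, Col1a1 and Col1a2.

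Spread within groups set some collagens apart from the rest. The median within-group SD over all genes was 0.0866 on the log2 scale, and the 90th percentile was 0.166. Of the 25 collagen genes, 7 were at or above that percentile, where by construction 10% of all genes are: Col14a1 (SD 0.518), Col1a1 (0.50), Col1a2 (0.477), Col12a1 (0.319), Col3a1 (0.301), Col8a1 (0.245) and Col4a1 (0.193). Col4a1, at the 93.8th percentile, was the gene just inside, and Col9a1, at the 86.1th, the one just outside. This division was made after the values were seen and is a description. The 7 genes had HDACI 2 as their highest array without exception. Averaged over the 7, the log2 signal relative to the vehicle mean was -0.29, 0.71, 0.12 and -0.07 in HDACI 1 to 4 and 0.06, 0.25, -0.15 and -0.16 in vehicle 1 to 4. The other 18 genes averaged -0.09, 0.02, 0.03 and -0.06 with HDACI and -0.01, -0.12, 0.06 and 0.07 with vehicle, and vehicle 2 was low where it had been high among the 7. Among the marker lists given below, vehicle 2 was likewise the lowest vehicle array for skeletal muscle (-0.09) and for cartilage and bone genes (-0.04). It was so for no other marker list, and the low vehicle 2 is not particular to collagens. HDACI 2 contributes to the SD by which the genes were divided, so the division itself favours a high or low HDACI 2 among the 7 and a smaller spread among the 18.

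**Figure D4:**
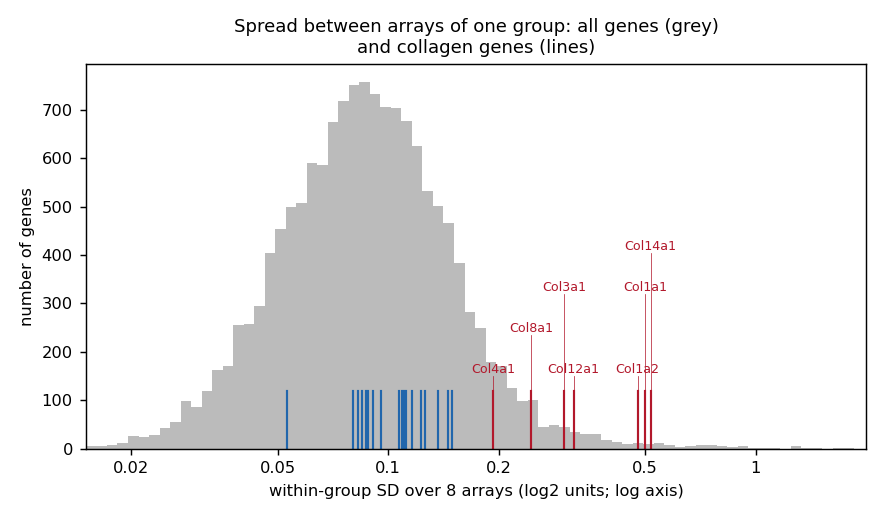
Within-group SD of log2 signal for all 14506 genes (grey histogram, logarithmic horizontal axis, a few genes beyond the plotted range) and for the collagen genes (lines; red for the 7 at or above the 90th percentile, blue for the other 18). The 7 named genes lie in the right tail, from 0.193 for Col4a1 to 0.518 for Col14a1.

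Across the whole family, HDACI 2 was the highest array for 11 of 25 genes (16.1% of all genes), namely the 7 above with Col5a1, Col5a2, Col5a3 and Col16a1. Vehicle 4 was the highest for 8 (18.8%), vehicle 3 for 5 (12.02%) and vehicle 2 for 1 (17.9%). Vehicle 2 was the lowest for 11 (15.4%) and HDACI 1 for 8 (12.2%). None of these shares was tested, since the genes share the arrays.

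Genes that act on collagen were listed by role. Enzymes and chaperones of biosynthesis and cross-linking (28 of 31 measured) lay above 0 for 16 and below for 12, with a median of 0.03, and of -0.01 without HDACI 2. Called at an unadjusted p under 0.01 were 0 of 28 (1.46% of all genes), and at under 0.05 there were 1 higher (2.79%) and 1 lower (4.96%). The higher gene was Loxl1, a lysyl oxidase that cross-links collagen and elastin, with 7.70, 8.66, 7.78 and 7.91 on the HDACI arrays against 7.32, 7.45, 7.74 and 7.64 on the vehicle arrays. HDACI 2 was far above the others, and HDACI 1 lay below vehicle 3. The log2 fold change of Loxl1 was 0.48 (SE 0.20, unadjusted p = 0.0365, adjusted p = 0.628, limma) and 0.26 without HDACI 2 (unadjusted p = 0.0339), and the unadjusted p was above 0.05 without vehicle 1 (0.0941) or vehicle 2 (0.0760). The lower gene was Adamts3, a protease that removes the amino-terminal propeptide of procollagen, at -0.18 (SE 0.08, unadjusted p = 0.0453), which was between -0.12 and -0.25 with each array left out and had an unadjusted p under 0.05 only without HDACI 1 or vehicle 1. P3h4, part of the prolyl 3-hydroxylase complex, and the lysyl oxidase Loxl2 followed with log2 fold changes of 0.13 and 0.20 (unadjusted p = 0.0568 and 0.0725). Without HDACI 2 these were 0.08 and 0.10 (unadjusted p = 0.150 and 0.166). At an unadjusted p under 0.05, 1 listed gene was then higher (2.46% of all genes) and 1 lower (3.66%). The lower gene was then P3h1, named after its values were seen, at -0.14 (unadjusted p = 0.0343).

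Of collagen receptors, 9 of 10 were measured, 6 of them above 0 and 3 below, with a median of 0.05 and, without HDACI 2, of 0.02. At an unadjusted p under 0.01 the count was 0 (1.46% of all genes), and at under 0.05 it was 1 higher, Ddr2 (2.79%), and 0 lower (4.96%). Ddr2 is a receptor tyrosine kinase that is activated by fibrillar collagen. It read 8.41, 9.16, 8.44 and 8.60 with HDACI and 8.14, 8.45, 8.07 and 8.24 with vehicle. HDACI 2 was the highest array, and HDACI 1 and HDACI 3 lay just below vehicle 2. Ddr2 had a log2 fold change of 0.43 (SE 0.16, unadjusted p = 0.0243, adjusted p = 0.626), 0.26 without HDACI 2 (unadjusted p = 0.0242), 0.40 without vehicle 1 (unadjusted p = 0.0573) and 0.38 without vehicle 3 (unadjusted p = 0.0632). Itga11, an integrin subunit for fibrillar collagen, and Mrc2, the receptor that takes up collagen fragments, had log2 fold changes of 0.16 and 0.26 (unadjusted p = 0.0558 and 0.0731). Without HDACI 2 both were at 0.13 (unadjusted p = 0.129 and 0.175).

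Proteoglycans and glycoproteins that bind fibrils (10 of 11 measured) had the highest median of the collagen-related lists, 0.29, and 0.12 without HDACI 2, with 7 genes above 0 and 3 below. Here 1 gene was called higher at an unadjusted p under 0.01 (1.46% of all genes in both directions) and 3 at under 0.05 (2.79%), with 0 lower. Without HDACI 2, 4 were higher at under 0.05 (2.46% of all genes) and 0 lower (3.66%). The gene called at under 0.01 was Bgn, which encodes biglycan, a small leucine-rich proteoglycan that binds type I collagen. It read 10.34, 11.32, 10.68 and 10.88 with HDACI and 10.03, 10.20, 10.31 and 10.03 with vehicle. All HDACI arrays lay above all vehicle arrays, which held for 1.42% of all genes, and the margin was smallest for HDACI 1. Among the other fibril partners, Fn1 alone was separated in the same way. Bgn had a log2 fold change of 0.66 (SE 0.18, unadjusted p = 0.00404, adjusted p = 0.610, limma) and of 0.49 without HDACI 2 (unadjusted p = 0.00383), and its unadjusted p was above 0.01 without HDACI 4 (0.0121), vehicle 1 (0.0126) or vehicle 4 (0.0128).

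Prelp and Aspn, which encode further small leucine-rich proteins, had log2 fold changes of 0.51 (SE 0.17, unadjusted p = 0.0148) and 0.93 (SE 0.39, unadjusted p = 0.0422). Without HDACI 2 these were 0.35 (unadjusted p = 0.0267) and 0.47 (unadjusted p = 0.0193). For Aspn the unadjusted p was above 0.05 without HDACI 3 or any 1 of the vehicle arrays (0.0503 to 0.0998). Fn1, fibronectin, gave 0.49 (SE 0.23, unadjusted p = 0.0628) and 0.21 without HDACI 2 (unadjusted p = 0.0101). Other fibril partners had values below 0: decorin (Dcn) and lumican (Lum), named after their values were seen, gave -0.36 (SE 0.43) and -0.09 (SE 0.52), and without HDACI 2 they gave -0.70 (unadjusted p = 0.0990) and -0.53 (unadjusted p = 0.260). Of the listed basement membrane partners, 8 of 13 were measured: laminin chains, a nidogen and agrin, but not perlecan. They had 5 genes above 0 and 3 below, with medians of 0.03 and, without HDACI 2, -0.03. Of these, 0 had an unadjusted p under 0.05. The smallest p values were those of the laminin chains Lama3 (log2 fold change -0.08, unadjusted p = 0.105) and Lamc3 (-0.16, unadjusted p = 0.131). Without HDACI 2 these chains gave -0.06 (unadjusted p = 0.239) and -0.21 (unadjusted p = 0.0604).

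Markers of cell types that make collagen or surround the cord were set beside these values, as mean log2 signal relative to the vehicle mean. The 14 measured of 16 leptomeningeal fibroblast markers stood at -0.01, 0.63, 0.09 and 0.17 in HDACI 1 to 4 and between -0.17 and 0.08 in the vehicle arrays. HDACI 2 was the highest, as it was for 11 of the 25 collagen genes. With all arrays 11 of these markers lay above 0 and 3 below, with a median of 0.16, and without HDACI 2 the median was 0.07. Igfbp2, an insulin-like growth factor binding protein, was the 1 of 14 markers with an unadjusted p under 0.05 (2.79% of all genes were called higher). Its log2 fold change was 0.37 (unadjusted p = 0.0446, limma), and 0.26 without HDACI 2 (unadjusted p = 0.123). Mural cell markers (10 of 10) reached 0.33 in HDACI 2, while HDACI 1, 3 and 4 lay at -0.04 to 0.13 and the vehicle arrays at -0.03 to 0.02, and endothelial markers (9 of 10) reached 0.26, while these ranges were -0.06 to 0.11 and -0.03 to 0.04. Of the mural and endothelial lists 0 genes had an unadjusted p under 0.05 (2.79% of all genes higher, 4.96% lower). Without HDACI 2, 1 mural gene was lower at that threshold (3.66%), the potassium channel subunit Abcc9, named after its values were seen, with a log2 fold change of -0.14 (unadjusted p = 0.0211).

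Schwann cell markers, of which 5 of 7 were measured, had a pattern over the arrays that some collagen genes shared. The mean of the 5 markers stood at -0.80, 0.87, 0.12 and -0.86 in HDACI 1 to 4. In vehicle 1 to 4 it stood at 0.64, 0.74, -0.97 and -0.41. HDACI 2, HDACI 3, vehicle 1 and vehicle 2 were high and the other 4 arrays low, across both groups. Prx, which encodes periaxin of the peripheral myelin sheath, was named after its values were seen. It read 7.74, 9.88, 8.92 and 7.53 with HDACI and 9.40, 9.73, 7.32 and 8.11 with vehicle. Pmp2, a lipid carrier of peripheral myelin that some glia of the cord are also known to make, spanned 8.10 to 12.15 with HDACI and 7.98 to 11.92 with vehicle. The same 4 arrays were the 4 highest for 5 of 25 collagen genes (Col1a1, Col1a2, Col3a1, Col4a1 and Col14a1), for 3 of 10 fibril partners (Dcn, Lum and Sparc), for 5 of 28 biosynthesis genes, for 2 of 8 basement membrane partners, for 1 of 9 receptors, for 5 of 5 Schwann cell markers and for 2.80% of all genes. Of the 14 leptomeningeal markers the count was 0. The set was taken as the 4 highest arrays of Col1a1, so Col1a1 itself matches by construction. The 5 Schwann cell markers had log2 fold changes of -0.32 to -0.09, with a median of -0.13, and of -0.33 without HDACI 2, and 0 had an unadjusted p under 0.05.

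Of the other marker lists, none spanned as wide a range as the leptomeningeal (0.80) and Schwann cell markers (1.84). Between arrays, mean values ranged over 0.22 for neuronal and astrocyte markers, 0.16 for oligodendrocyte markers, 0.38 for microglial markers, 0.48 for dorsal horn genes and 0.15 for skeletal muscle genes as for those of cartilage and bone. HDACI 2 was the lowest array for neurons, at -0.19, and for dorsal horn genes, at -0.14. Among these lists, 2 of 6 neuronal markers, Elavl4 and Nefl, were lower at an unadjusted p under 0.05 (4.96% of all genes; log2 fold changes -0.17 and -0.12, unadjusted p = 0.0102 and 0.0466). Without HDACI 2, 1 neuronal marker was lower at that threshold (Elavl4; 3.66% of all genes), and 4 of the 6 dorsal horn genes and 1 of the 6 astrocyte markers (Gja1) were higher (2.46%). The part of leptomeningeal, vascular and Schwann cell RNA in the collagen values was not tested.

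**Figure D5:**
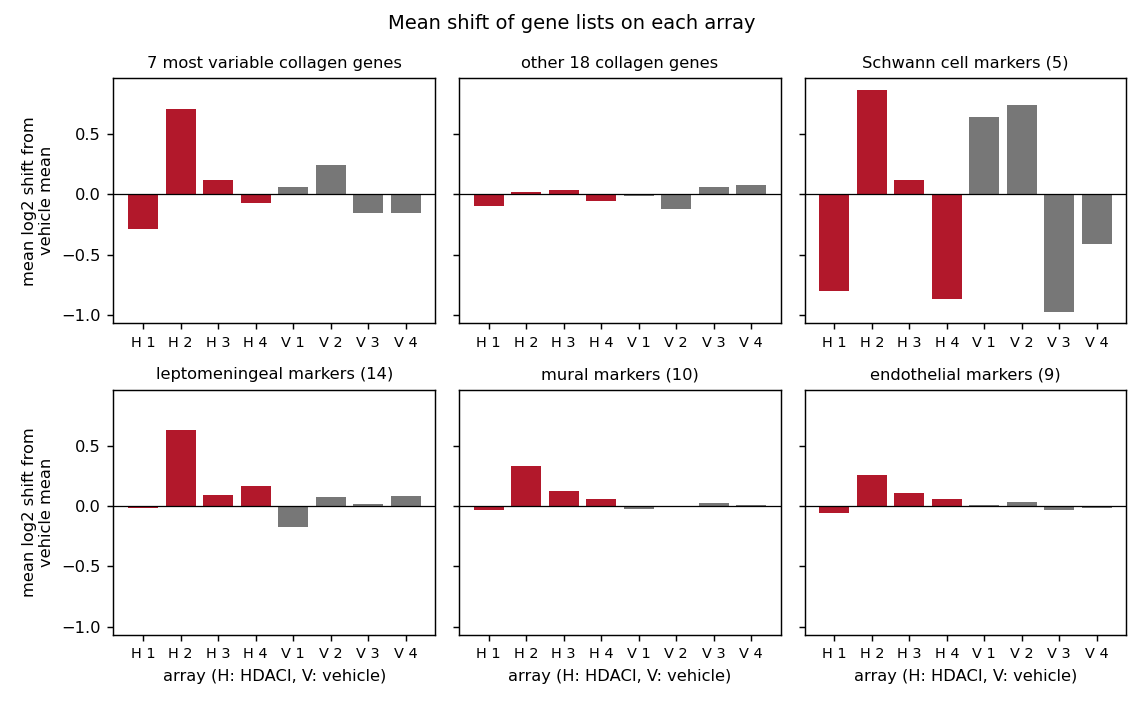
Mean log2 signal of the 7 variable and the other 18 collagen genes and of Schwann cell, leptomeningeal, mural and endothelial markers on each array, as bars from the mean of the 4 vehicle arrays (H, HDACI; V, vehicle). The variable collagens reach 0.71 and the leptomeningeal markers 0.63 in HDACI 2, and the Schwann cell markers run from -0.97 in vehicle 3 to 0.87 in HDACI 2.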

How the data were processed

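RNA of 4 HDACI and 4 vehicle samples of dorsal ipsilateral cord was measured on 1 array each. The deposited values are log2 signals: the authors used the R package oligo on the scans and normalised by RMA. Its quantile step removes any shift shared by most transcripts, and dim probe sets are compressed. Groups and replicate numbers came from the sample titles; the oligo version was not given in the sources used here.

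Symbols came from the platform annotation, updated by Entrez number through RefSeq (14481 numbers matched): 15310 probe sets had 1 symbol, 323 several and 13581 none listed. A gene's value was the mean of its probe sets. HDACI and vehicle were compared in limma 3.58.1 (lmFit, then eBayes; R 4.3.3) over 14506 genes, two-sided, with Benjamini-Hochberg adjustment and no filter, weights or block, and single genes also by exact permutation of the arrays. Thresholds were an adjusted p of 0.05 and, as in the study, an unadjusted p of 0.01. The number of arrays limits the precision. The limma fit was tested on simulated data.

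The collagens, classes, partner lists and marker lists were chosen with earlier results of these data known. Per-array values are given for Col1a1, Col1a2, Col3a1, Col4a1, the 8 collagens with the smallest p and the 3 with the lowest fold change, and up to 4 genes with the smallest p are named per list, and a gene outside this rule is said to be named after its values were seen. Alternatives were each array left out, the replicate number as a block, trend and robust eBayes, array weights, a filter at the 25th percentile of mean signal, a further quantile normalisation, median centring, the highest probe set per gene and 1 fit over all probe sets.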

Additional observations from a re-analysis of the deposited data

Results flagged for a closer look

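In 50 groups of 4 arrays (25 collagen genes in each treatment), the array farthest from its group was set against Dixon's 95% critical value; chance passes about 1 in 20 groups. It was passed by 4 groups, each through a low array, and the value is the gap to the nearest array as a share of the group's range. Col9a1 was lowest in vehicle 2 (7.44, a ratio of 0.910), with the other vehicle arrays between 7.77 and 7.81. Col11a1 was lowest among HDACI arrays in HDACI 2 (8.38, a ratio of 0.868). Col23a1 and Col7a1 were lowest among HDACI arrays in HDACI 1, at 8.45 (a ratio of 0.852) and 7.80 (a ratio of 0.851). HDACI 2 did not pass as a high array for any of the 25 genes.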

How the results depend on the processing

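The count of collagens at an unadjusted p under 0.01, 0 with all arrays, ranged from 0 to 1 with each array left out (Col8a1 without HDACI 1, Col10a1 without vehicle 2) and was 1 with array weights (Col10a1). At an unadjusted p under 0.05 it was 2, ranged from 1 to 2 with each array left out and was 1 without HDACI 1 (Col8a1), HDACI 2, HDACI 4 or vehicle 1 (Col10a1) or vehicle 3 (Col8a1). Without vehicle 2 the 2 were Col10a1 and Col9a1. With a replicate block the counts were 0 and 2, as without it. The labels do not say whether the replicate numbers pair the samples. Deviations of same-numbered arrays correlated at -0.27, 0.36, 0.04 and 0.06 across genes, and only replicate 2 correlated best with its own number. These correlations cannot decide the question, because a pairing need not show in most genes. The family median ranged from -0.047 to 0.034 with each array left out and from -0.023 to 0.008 otherwise.

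With each array left out, 15 genes changed sign at least once, and none of them was called. Their log2 fold changes ranged from -0.039 to 0.440 (Col1a1), -0.043 to 0.404 (Col1a2), -0.075 to 0.034 (Col2a1), -0.186 to 0.127 (Col3a1), -0.060 to 0.037 (Col5a1), -0.107 to 0.003 (Col27a1), -0.081 to 0.087 (Col4a1), -0.054 to 0.055 (Col4a3), -0.047 to 0.038 (Col4a4), -0.150 to 0.182 (Col12a1), -0.278 to 0.123 (Col14a1), -0.007 to 0.068 (Col16a1), -0.056 to 0.048 (Col17a1), -0.001 to 0.085 (Col23a1) and -0.092 to 0.025 (Col7a1). Array weights turned the sign of Col3a1 (-0.060), Col4a1 (-0.012), Col12a1 (-0.010), Col17a1 (-0.010) and Col4a3 (3e-05), and the highest probe set that of Col6a4 (0.009). The cause was not tested. With 4 arrays a group, small differences cannot be shown or bounded tightly for the variable collagens.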
